A study of Mus musculus with 12 samples.

Results

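A set of 10 genes of Bergmann glia and astrocytes was followed in bulk RNA from the mouse cerebellum, out of 55401 gene identifiers in the count tables. They were chosen by symbol. Gdf10, Hopx, Fabp7 and Slc1a3 stand for Bergmann glia, and Slc1a2, Aqp4, Gfap, S100b, Gja1 and Aldh1l1 for astrocytes in general. All 10 were found, all 10 had a mean of at least 1 CPM (reads of the gene scaled to the library's gene reads, with TMM factors), and all 10 passed the filter on low counts.

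The study sequenced 12 cerebella, 1 library per mouse, in 3 groups of 4. The WT DMSO group held wild-type mice injected with dimethyl sulfoxide (DMSO). The Het DMSO group held heterozygous Atxn1154Q/2Q mice, which carry a long glutamine repeat in 1 copy of Atxn1 as a model of spinocerebellar ataxia type 1 (SCA1), injected with the same vehicle. The Het Hit 2 group held such knock-in mice given the compound Hit 2, dissolved at 25 mg/ml in DMSO. Every group thus received intraperitoneal DMSO, kept below 4 ml/kg, on 5 days running and again for 5 days after a rest, from 18 to 20 weeks of age, and was perfused with saline before dissection. The expanded allele sits in the endogenous gene and is therefore not limited to 1 cell type, and the labels name no strain, sex or litter. Bulk cerebellar RNA was measured, so fewer cells of a type and less RNA per cell cannot be told apart in these values. Libraries are named by animal number.

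Bergmann glia are unipolar astrocytes of the cerebellar cortex. Their cell bodies lie beside the Purkinje cells, their fibres cross the molecular layer, and they clear synaptic glutamate around Purkinje cell synapses. Other astrocytes lie in the granular layer and the white matter. In reactive gliosis astrocytes classically raise intermediate filament genes, with Gfap as the usual marker, together with inflammatory and secreted genes. Whether the knock-in allele or Hit 2 was accompanied by such a change was asked through the 10 genes and 2 further lists, one of reactive astrocyte genes and one of other astroglial genes.

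Depth ran from 15855751 to 45265719 gene reads per library, and the member with the fewest reads in any library, Gdf10, had 32 reads there. Differences are log2 fold changes with the standard error (SE) and the adjusted p of edgeR's quasi-likelihood test over 19378 genes. Het DMSO minus WT DMSO is called the knock-in contrast, Het Hit 2 minus WT DMSO the treated knock-in contrast, and Het Hit 2 minus Het DMSO the Hit 2 contrast. The threshold of 0.05 was passed by 1 gene in each of the first pair (Myo15, an unconventional myosin gene, lower) and by 0 in the Hit 2 contrast. Library 409 (Het DMSO) had 0.0795% mitochondrial reads, against 1.85% or more in the others. Library 411 (Het DMSO) nearly lacked granule cell transcripts, as the sums of 8 granule markers show (76.9 CPM, against 3463 CPM or more in the others). The granule cell receptor gene Gabra6 stood at 0.606 CPM there, against 227 CPM or more elsewhere. The dopamine transporter gene Slc6a3, of midbrain neurons, stood at 36.2 CPM, against at most 1.10 CPM elsewhere. These markers go against the cerebellum label of library 411, so its tissue identity is in doubt, and with it each Het DMSO mean and each contrast that includes it. All contrasts share 1 estimate of the spread per gene, so 411 also enters the SE and p of the treated knock-in contrast. Library 410 (Het Hit 2) had the lowest granule and Purkinje sums after 411. Values without 409, 411 or both are given beside the results they moved.

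The promoters of 3 members are shown because the results turn on these genes. Gdf10 and Slc1a3 were the members whose Het and WT libraries did not overlap, and Gfap is the gene by which gliosis is usually read. The sequences run 5′ to 3′ on the gene's own strand, from 250 bases before to 50 bases after the RefSeq start, in GRCm38.p6. Gdf10 lies at chr14:33923337-33923636 on the plus strand, Slc1a3 at chr15:8710758-8711057 on the minus strand and Gfap at chr11:102897151-102897450 on the minus strand. The bases after the start were found in a GENCODE M21 transcript of the gene for Gdf10 and Gfap, but not for Slc1a3. Capitals mark TTGGC (the short NFI site) and TTCNNNGAA (the STAT core), each searched on both strands.
Gdf10: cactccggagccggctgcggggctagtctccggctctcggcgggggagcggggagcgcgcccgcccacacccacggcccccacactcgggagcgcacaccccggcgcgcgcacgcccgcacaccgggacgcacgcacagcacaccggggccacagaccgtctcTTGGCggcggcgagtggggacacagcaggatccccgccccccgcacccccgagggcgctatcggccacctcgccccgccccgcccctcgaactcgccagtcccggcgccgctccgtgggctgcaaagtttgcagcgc
Slc1a3: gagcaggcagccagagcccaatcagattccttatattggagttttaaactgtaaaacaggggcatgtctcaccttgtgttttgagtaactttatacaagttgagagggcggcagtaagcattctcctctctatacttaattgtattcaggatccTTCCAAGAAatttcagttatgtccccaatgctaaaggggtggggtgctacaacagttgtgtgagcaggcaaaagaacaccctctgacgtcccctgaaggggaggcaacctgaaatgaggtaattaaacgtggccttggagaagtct
Gfap: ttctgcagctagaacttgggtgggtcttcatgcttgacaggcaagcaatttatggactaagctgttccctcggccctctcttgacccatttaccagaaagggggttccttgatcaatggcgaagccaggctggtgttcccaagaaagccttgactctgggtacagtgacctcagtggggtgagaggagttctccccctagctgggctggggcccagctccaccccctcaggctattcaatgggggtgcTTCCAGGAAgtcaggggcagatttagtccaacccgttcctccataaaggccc
TTCNNNGAA occurred once in the Slc1a3 and once in the Gfap window, and in 2 of the 10 windows found for 9 members. Of 32851 mouse windows of this length 8.30% hold it. TTGGC occurred once in the Gdf10 window and in 5 of the 10 windows, against 46.7% of all. ACAAT or ACAAAG (SOX, both strands) stood in 3 of the 10 windows, against 42.9% of all, and TATAAA (gene strand) in 0, against 8.32%. These matches describe letters in short windows and say nothing about binding. GC content was 77.3% for Gdf10, 45.3% for Slc1a3 and 55.7% for Gfap.

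Levels of different genes were compared per kilobase of exon (RPKM, on union exon lengths of the GENCODE M21 annotation). In WT DMSO mice S100b, a calcium-binding protein also made outside astrocytes, was the highest at 119.5 ± 7.97 RPKM (SD, n = 4). The glutamate transporter genes followed, Slc1a2 at 90.7 ± 7.48 and Slc1a3 at 88.8 ± 6.74 RPKM, and these neighbours did not differ beyond their spread. Gdf10 (28.0 ± 5.93 RPKM), Aqp4 (28.0 ± 5.61), Hopx (27.3 ± 4.74) and Gfap (23.5 ± 9.19) came next, within 1 SD of each other. Gja1 (14.0 ± 0.936 RPKM) and Aldh1l1 (13.5 ± 1.46) were also alike, and Fabp7, abundant in the developing cerebellum, was lowest at 3.77 ± 1.10 RPKM.

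**Figure D1:**
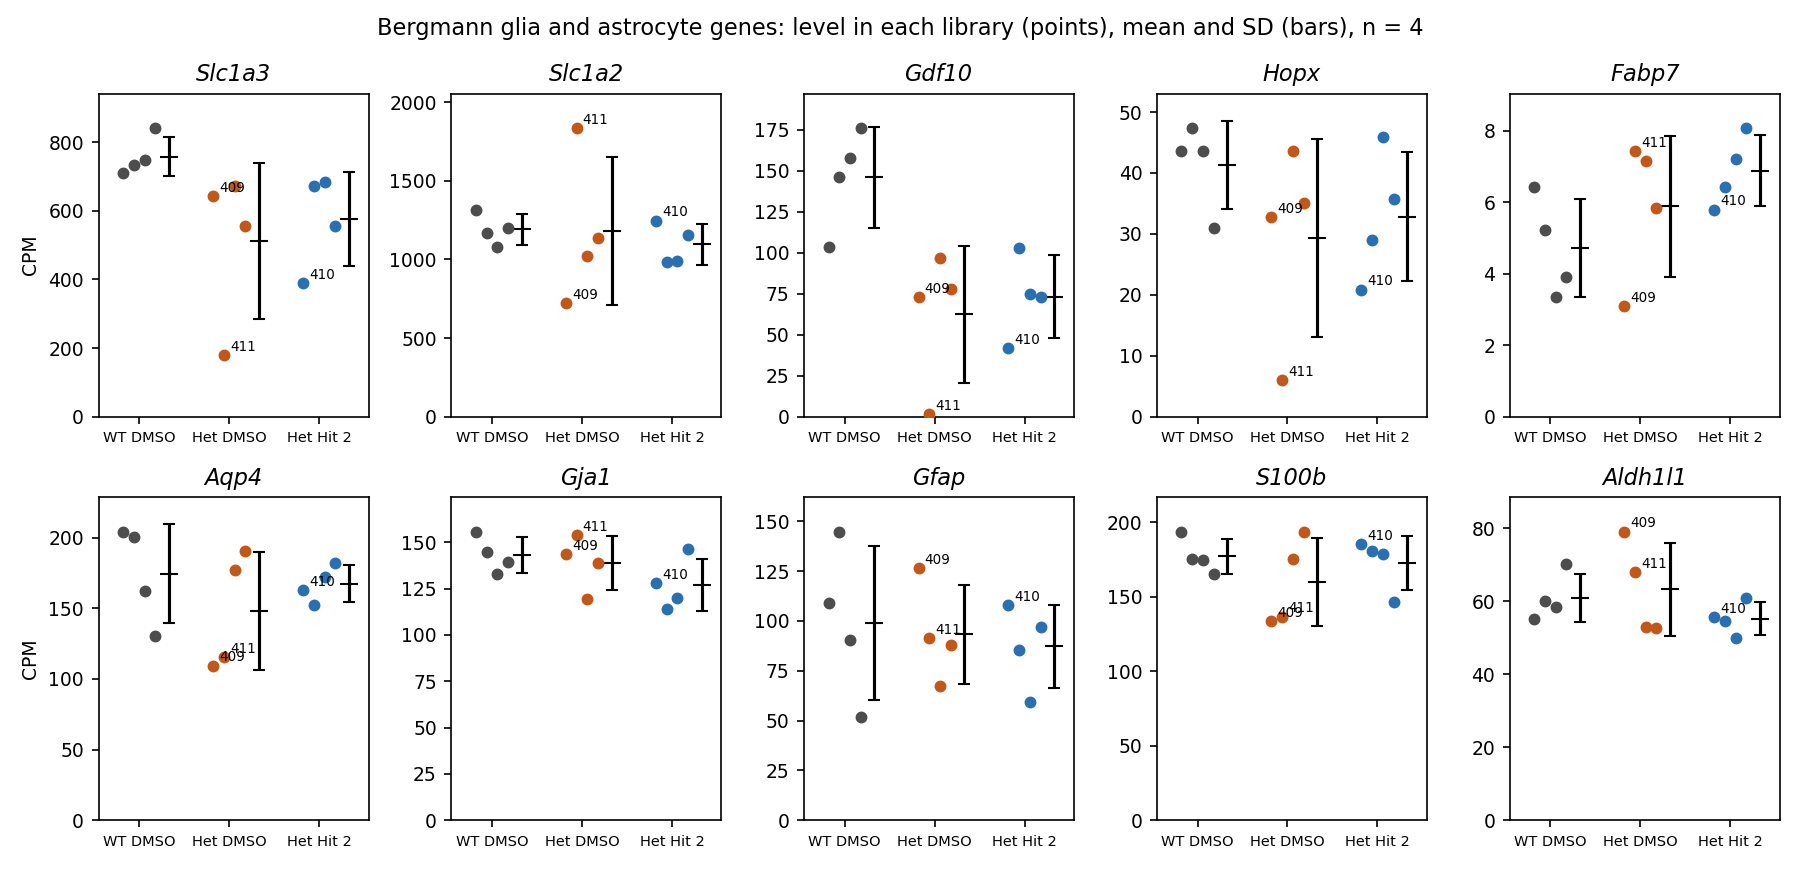
Level of each member in CPM (vertical axis, from 0) in every library, by group; points are libraries, the bars to their right the mean and SD of 4 libraries, and libraries 409, 410 and 411 are numbered. Gdf10 and Slc1a3 are the 2 panels in which neither Het group overlaps WT DMSO, and library 411 is at the bottom for Slc1a3, Gdf10 and Hopx and at the top for Slc1a2.

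Among the Bergmann glia genes, Gdf10 and Slc1a3 stood lower in the knock-in libraries than in the wild-type libraries, but neither difference passed the test. In each of the 2 comparisons with WT DMSO, 2 of the 10 members had groups that did not overlap, both lower in Het, against 2.45% of all genes tested that were lower without overlap (Het DMSO) and 3.42% (Het Hit 2), or 4.39% and 6.32% in either direction. The 2 comparisons share the WT libraries. By edgeR's adjusted p, 0 of 10 members passed in either (percentage of all genes called 0.00516% in both), 0 of 10 had an unadjusted p under 0.05 (7.11% and 1.71% of all genes), and DESeq2 gave 0 by both measures.

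Gdf10 (ENSMUSG00000021943) encodes a growth factor of the BMP family, secreted by Bergmann glia. It read 103, 146, 158 and 176 CPM in WT DMSO libraries 413, 425, 426 and 431. In Het DMSO it read 72.7 (409), 1.62 (411), 96.9 (420) and 78.1 CPM (429), and in Het Hit 2 41.6 (410), 103 (421), 74.8 (422) and 73.2 CPM (430). All 8 Het libraries lay below the WT libraries, the closest by a narrow margin (103.15 CPM in 421 against 103.30 CPM in 413). The difference came to -1.23 (SE 0.73, 95% interval -2.81 to 0.35, adjusted p 0.616) in the knock-in contrast and to -0.99 (SE 0.72, adjusted p 1.000) in the treated knock-in contrast. Without libraries 409 and 411 the first value was -0.75 (adjusted p 0.793) and the second -1.01 (adjusted p 0.141). Without 411 alone the first was -0.81, and with 1 library left out at a time it ran from -1.52 (without 420) to that value, and the second from -1.21 (without 421) to -0.81 (without 410).

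Slc1a3 (ENSMUSG00000005360) encodes GLAST, the main glutamate transporter of Bergmann glia. The WT DMSO libraries read 709, 732, 749 and 841 CPM. The Het DMSO libraries read 642 (409), 179 (411), 672 (420) and 556 CPM (429), and the Het Hit 2 libraries 390 (410), 673 (421), 684 (422) and 557 CPM (430). No Het library reached the lowest WT library. In the knock-in contrast Slc1a3 stood at -0.57 (SE 0.33, 95% interval -1.29 to 0.16, adjusted p 0.616), at -0.26 without library 411, -0.72 without 420 and -0.31 without 409 and 411. For the treated knock-in contrast it was -0.40 (SE 0.33, adjusted p 1.000), -0.26 without library 410 and -0.49 without 422.

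Hopx (ENSMUSG00000059325), a homeodomain-only protein gene used as a Bergmann glia marker, overlapped between all groups. It read 43.5, 47.4, 43.5 and 30.9 CPM in WT DMSO, 32.8 (409), 6.06 (411), 43.6 (420) and 35.0 (429) in Het DMSO, and 20.8 (410), 29.0 (421), 45.9 (422) and 35.7 CPM (430) in Het Hit 2. Libraries 411 and 410 were again the lowest of their groups. The knock-in contrast gave -0.49 (SE 0.44, adjusted p 0.670), -0.14 without library 411, -0.74 without 420 and -0.09 without 409 and 411. The treated knock-in contrast gave -0.33 (SE 0.44, adjusted p 1.000), -0.17 without 410 and -0.54 without 422.

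Fabp7 (ENSMUSG00000019874), the brain fatty acid-binding protein gene of radial and Bergmann glia, did not share the low values of the other 3. It read 6.42, 5.21, 3.35 and 3.89 CPM in WT DMSO, 3.10 (409), 7.42 (411), 7.16 (420) and 5.84 (429) in Het DMSO, and 5.79 (410), 6.43 (421), 7.22 (422) and 8.07 CPM (430) in Het Hit 2, and its reads ranged between 87 and 314. The Het libraries other than 409 covered the upper part of the WT range and above. Against WT DMSO it differed by 0.31 (SE 0.29, adjusted p 0.676) in Het DMSO and by 0.54 (SE 0.29, 95% interval -0.08 to 1.17, adjusted p 1.000) in Het Hit 2, the latter with the smallest unadjusted p of any member in any comparison (edgeR, 0.0834). The first value was 0.52 without library 409, 0.18 without 411 and 0.45 without both. Without WT library 413 the values were 0.49 and 0.73, and without WT library 426 they were 0.18 and 0.41.

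**Figure D2:**
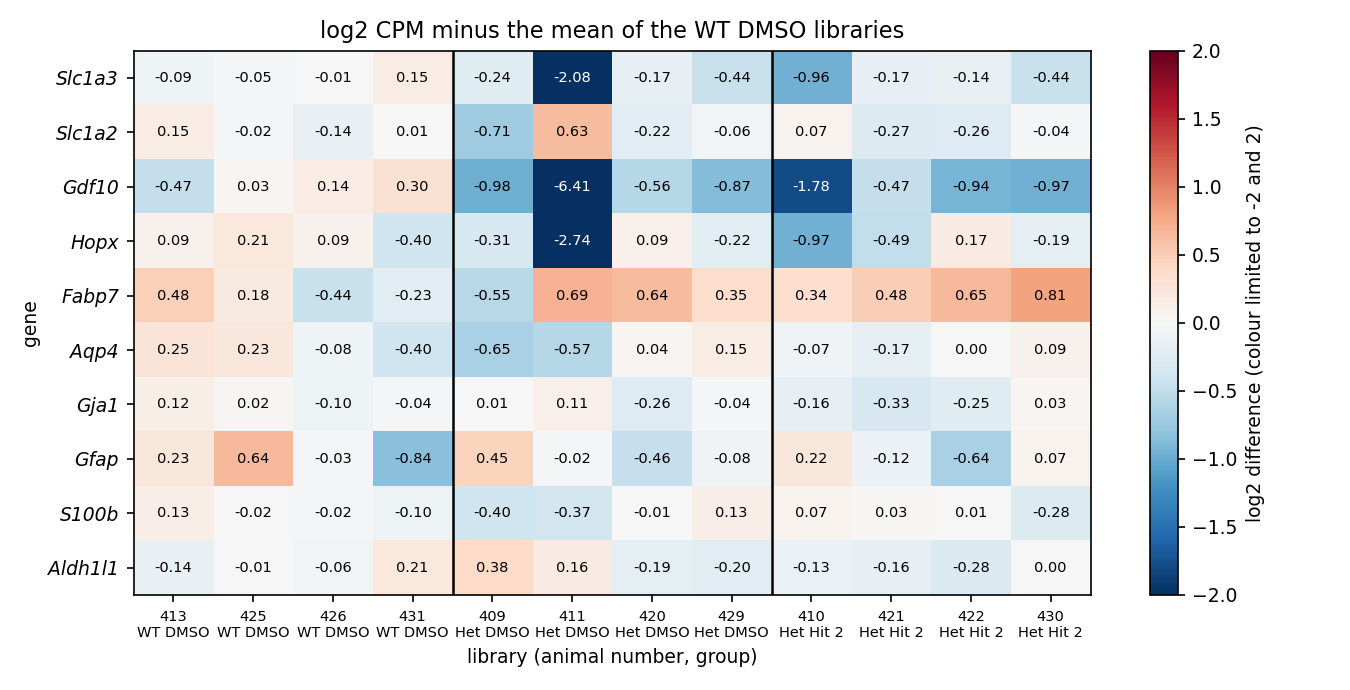
Log2 CPM of each member (rows) in each library (columns, by group) minus the mean of the 4 WT DMSO libraries; numbers give the difference and colour is limited to -2 and 2. Library 411 stands at -6.41 for Gdf10, -2.74 for Hopx and -2.08 for Slc1a3, library 410 follows at -1.78, -0.97 and -0.96, and Fabp7 is above 0 in 7 of the 8 Het libraries.

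None of the general astrocyte genes for transport and coupling passed the test. Slc1a2 (ENSMUSG00000005089) encodes GLT-1, the main astrocytic glutamate transporter of the forebrain. It read 1077 to 1316 CPM in WT DMSO, 724 (409), 1835 (411), 1019 (420) and 1138 (429) in Het DMSO, and 986 to 1247 CPM in Het Hit 2. Het DMSO thus held both the lowest and the highest of the 12 values, and the knock-in contrast gave -0.01 (SE 0.24, adjusted p 0.982), or -0.30 without library 411, 0.15 without 409 and -0.15 without both. In 411 the 2 transporter genes parted. Slc1a2 stood at 1.70 times the mean of libraries 420 and 429, and Slc1a3 at 0.291 times that mean.

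Aqp4 (ENSMUSG00000024411), the water channel gene of astrocyte endfeet, read 130 to 204 CPM in WT DMSO, 109 (409), 115 (411), 177 (420) and 191 (429) in Het DMSO, and 152 to 182 CPM in Het Hit 2. Only libraries 409 and 411 fell outside the WT range. The knock-in contrast gave -0.24 (SE 0.20, adjusted p 0.659) 0.07 without those 2 libraries, -0.38 without 429 and -0.37 without WT library 431. Gja1 (ENSMUSG00000050953), which encodes the gap junction protein connexin 43, varied least, from 114 to 156 CPM over the 12 libraries. Gja1 stood at -0.04 (SE 0.12, 95% interval -0.30 to 0.21, adjusted p 0.893) for Het DMSO and -0.17 (SE 0.12, 95% interval -0.43 to 0.08, adjusted p 1.000) for Het Hit 2, each against WT DMSO. The first was -0.16 without 409 and 411 and 0.02 without 420, and the second was -0.26 without 430. The means of Het Hit 2 (127 ± 14.1 CPM) and WT DMSO (143 ± 9.60 CPM, SD, n = 4) differed by more than either SD, while their values overlapped.

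Gfap did not separate the groups. Gfap (ENSMUSG00000020932) encodes the intermediate filament protein of fibrous and reactive astrocytes. It read 109 (413), 145 (425), 90.4 (426) and 51.6 CPM (431) in WT DMSO, 127 (409), 91.2 (411), 67.2 (420) and 87.8 (429) in Het DMSO, and 108 (410), 85.2 (421), 59.4 (422) and 97.0 CPM (430) in Het Hit 2. The WT libraries alone spanned the range of all 12, and all 8 Het values fell inside it. Differences were -0.09 (SE 0.29, 95% interval -0.73 to 0.55, adjusted p 0.916) in the knock-in contrast and -0.18 (SE 0.29, 95% interval -0.82 to 0.46, adjusted p 1.000) for the treated knock-in contrast. The direction was not stable. Without library 425 these values were 0.16 and 0.06, with sex as a covariate 0.22 and 0.12, and without library 420 the first was 0.04. In the other direction, without WT library 431 the values were -0.33 and -0.40, and without 409 and 411 the first was -0.36.

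S100b (ENSMUSG00000033208) read 166 to 194 CPM in WT DMSO, 134 (409), 137 (411), 176 (420) and 194 (429) in Het DMSO, and 146 to 186 CPM in Het Hit 2. The knock-in contrast gave -0.15 (SE 0.14, adjusted p 0.681), 0.05 without 409 and 411, and -0.26 without 429. Aldh1l1 (ENSMUSG00000030088), a folate metabolism enzyme gene used as a pan-astrocyte marker, read 55.0 to 70.3 CPM in WT DMSO, 79.0 (409), 68.0 (411), 53.0 (420) and 52.7 (429) in Het DMSO, and 49.8 to 60.8 CPM in Het Hit 2. Aldh1l1 stood at 0.05 (SE 0.15, adjusted p 0.893) for Het DMSO and -0.21 without 409 and 411. S100b left the WT range downwards in 409, 411 and 430. Aldh1l1 left it upwards in 409 and downwards in 420, 429, 421 and 422.

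**Figure D3:**
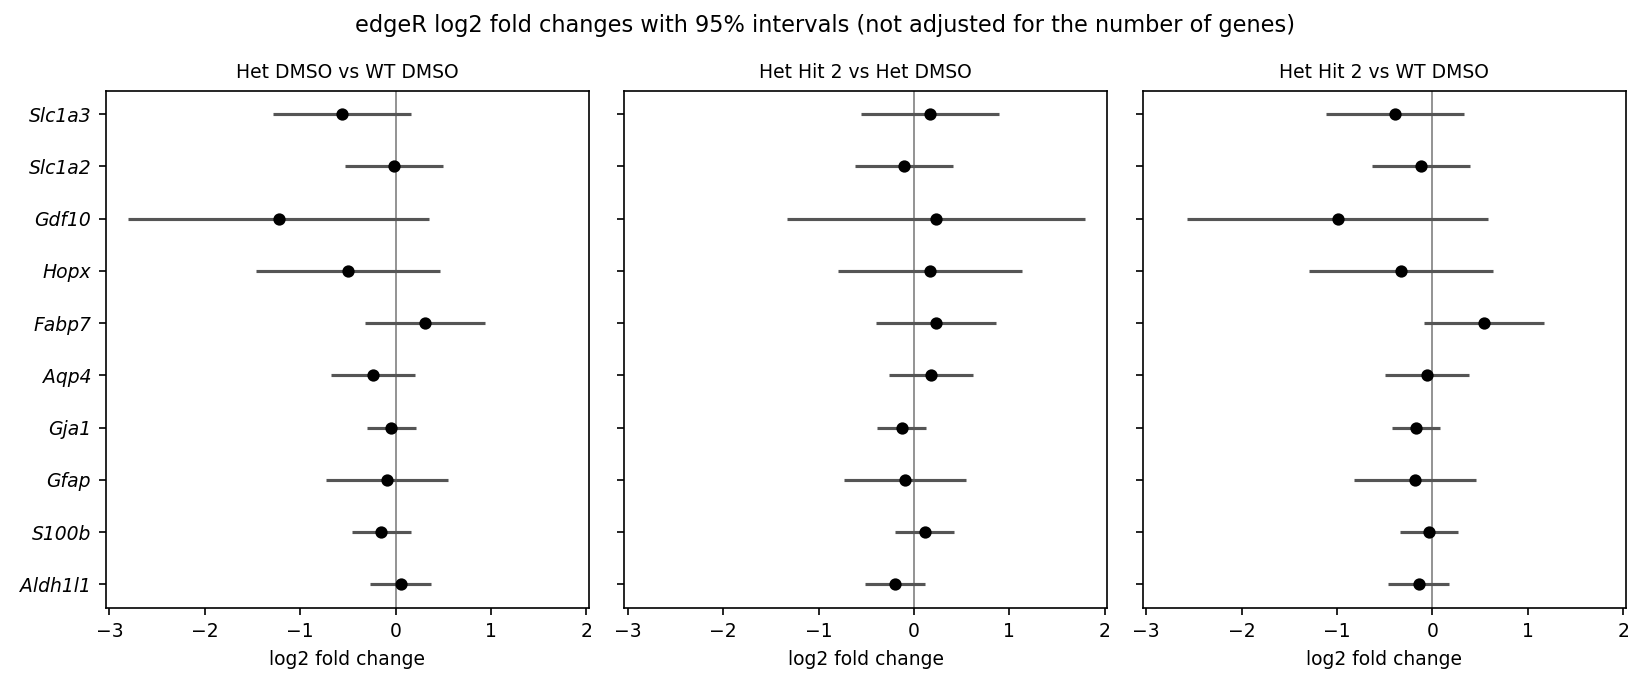
Log2 fold change of each member (points) with its 95% interval (lines) from edgeR in the 3 comparisons. All 30 intervals include 0, and they are widest for Gdf10 and narrowest for Gja1.

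For the compound, Het Hit 2 was set against Het DMSO. Of the 10 members 0 passed by edgeR's adjusted p (0.00% of all genes passed), 0 had an unadjusted p under 0.05 (1.55% of all genes), DESeq2 gave 0 by both measures, and 0 had groups that did not overlap (1.03% of all genes, 0.635% higher and 0.392% lower). The log2 fold changes ran from -0.20 (Aldh1l1, SE 0.15, adjusted p 0.898) to 0.23 (Gdf10, SE 0.72, and Fabp7, SE 0.29). Both ends moved with the 2 libraries. Fabp7 stood at 0.02 without 409 and 0.08 without 409 and 411, and Aldh1l1 at -0.07 and 0.06. Slc1a3 stood at 0.17 (SE 0.33, 95% interval -0.55 to 0.89), Hopx at 0.16 (SE 0.44, 95% interval -0.80 to 1.13) and Gfap at -0.10 (SE 0.29, 95% interval -0.74 to 0.55). These intervals include changes of either sign. Without library 411 the values of Slc1a3, Gdf10 and Hopx became -0.14, -0.20 and -0.20, and that of Slc1a2 went from -0.11 to 0.16. Without library 420 the first 3 became 0.33, 0.52 and 0.41, and without library 410 they were 0.30, 0.40 and 0.31. Without 409 and 411 together they were -0.09, -0.26, -0.25 and 0.02, and Gfap stood at 0.16, Aqp4 at -0.14 (0.18 with them) and S100b at -0.10 (0.11 with them).

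Across the list, 8 of 10 members had a negative log2 fold change in the knock-in contrast, with a median of -0.12, beside a median of 0.05 over all genes tested. That median was -0.27 without WT library 431 and -0.07 without WT library 413. In the treated knock-in contrast 9 of 10 were negative, with a median of -0.16 beside 0.02, of -0.09 without library 422 and of -0.23 without library 430. In the Hit 2 contrast 4 of 10 were negative, with a median of 0.14 beside -0.04, and the median became -0.12 without library 411, 0.22 without 420 and -0.06 without 409 and 411. The members did not vary as 1 block. Over the 45 pairs of members the median Pearson r of log2 CPM over 12 libraries was -0.07, and 20 pairs were positive. Without 409 and 411 the median r was 0.03, and 24 pairs were positive. The median Spearman rho was 0.06 with these libraries and 0.15 without them. Slc1a3 and Gdf10 had the highest r, 0.97 over 12 libraries and 0.92 over the 10 other than 409 and 411 (Spearman rho 0.92 and 0.90). Hopx had r of 0.93 with each of them over 12 libraries, but its rho was 0.52 with Slc1a3 and 0.44 with Gdf10, and over the 10 libraries r was 0.66 and 0.51. Over those 10 libraries Slc1a2 with Gja1 (r 0.83) and Aqp4 with Gfap (r 0.66) were as high as or higher than the pairs with Hopx. All points share library preparation and cell composition, so these are descriptions.

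Among the genes whose profile over the 12 libraries was most like that of Slc1a3 were Pvalb (Pearson r 0.986, Spearman rho 0.888) and Slc9a3 (0.985 and 0.923). Pvalb, a calcium-binding protein gene, is expressed in Purkinje cells and molecular layer interneurons. The closest to Gdf10 were Btg1 (Pearson r 0.993), Nrep (0.992) and Trmt9b (0.991). Without libraries 410 and 411, the farthest from the median, r was between 0.845 and 0.904 for these 5 genes. For Gfap the closest were Lrp5 (Pearson r 0.827), Ajuba (0.825) and Sh3bp4 (0.804). The closest genes of Hopx included Vim (Pearson r 0.966 over 12 libraries, 0.533 without 410 and 411), an intermediate filament gene. For the other 6 members the closest gene had a Pearson r of 0.870 (Gja1, with Hmgn2) to 0.985 (Slc1a2, with Gm33680). Each r is the highest of many and is a description.

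The sum of the 4 Bergmann glia genes ran from 862 to 1051 CPM in WT DMSO, 194 to 820 CPM in Het DMSO and 458 to 812 CPM in Het Hit 2, without overlap between WT and either Het group. Slc1a3 made up most of this sum (709 of 862 CPM in library 413), so the lack of overlap mainly restates that member. Hopx by itself overlapped, and Fabp7 did not share the low values. The sum of the 8 Purkinje cell markers was lower in every Het library than in WT DMSO, at 6739 to 7006, 478 to 6093 and 2987 to 5907 CPM. That of the 8 granule cell markers overlapped, at 5237 to 5954, 76.9 to 7448 and 3463 to 5822 CPM. The 6 astrocyte genes overlapped as well, at 1696 to 2033, 1317 to 2400 and 1572 to 1887 CPM. The 8 microglia markers summed to 73.1 to 104, 83.2 to 198 and 73.9 to 145 CPM, highest in 411 and 410. None of the 72 marker genes was at 0 in all libraries. The part of cell composition in the Gdf10 and Slc1a3 values was not tested.

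**Figure D4:**
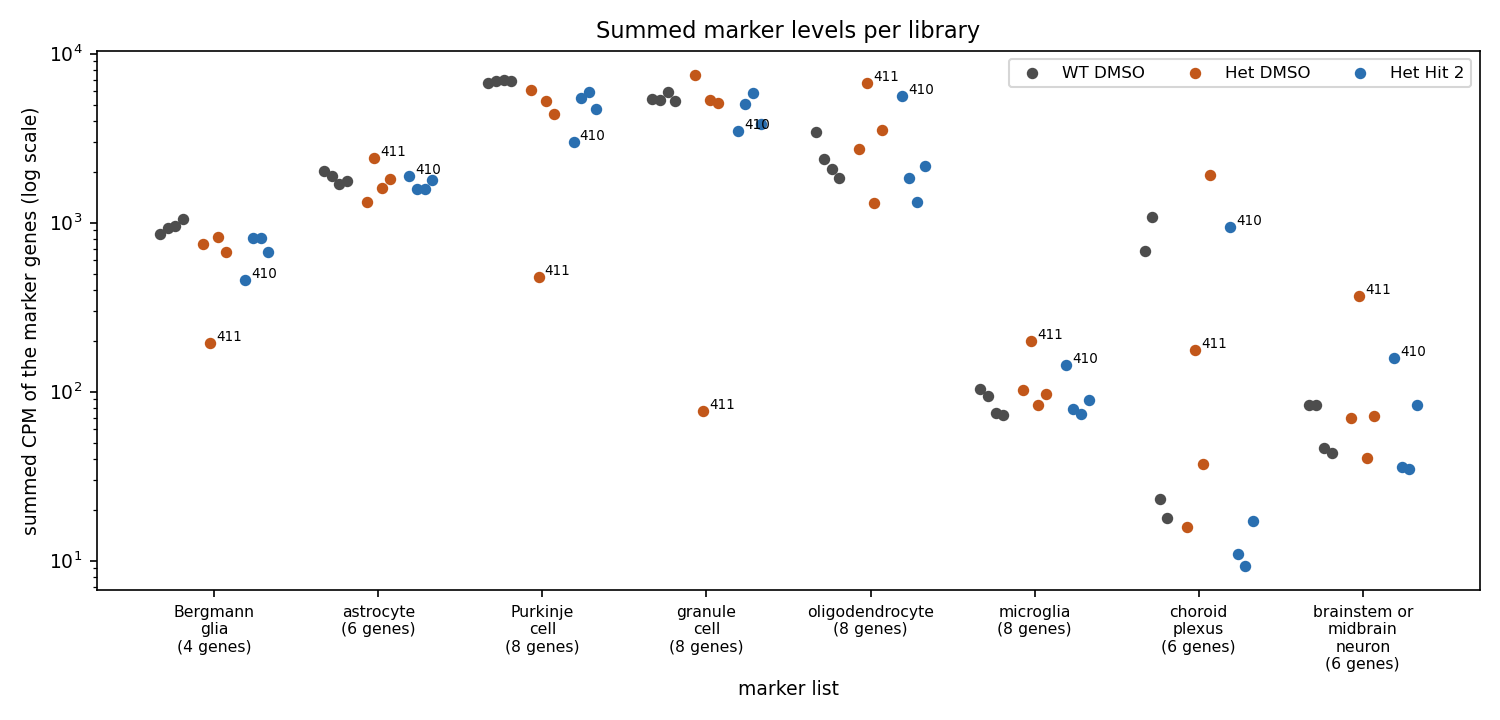
Summed CPM (log scale) of marker lists in each library, by group, with libraries 410 and 411 numbered. Bergmann glia and Purkinje cell sums of all Het libraries lie below those of the WT libraries, and 411 is lowest for both and for granule cells (76.9 CPM) and highest for oligodendrocyte and brainstem or midbrain neuron markers. The Bergmann glia sum is mostly Slc1a3.

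In library 411 low Bergmann, Purkinje and granule sums came with high sums of other types. The 8 oligodendrocyte markers summed to 6734 CPM, against 1309 to 5597 CPM in the other 11 libraries. The 6 markers of brainstem or midbrain neurons summed to 370 CPM, against 35.1 to 158 CPM elsewhere. Slc17a6 held 278 CPM of that sum, while Slc6a5, of the same list, stood at 12.6 CPM, its lowest value in any library. Library 410 came second in both sums. The value of Gdf10 in 411, 1.62 CPM from 32 reads, and that of Gfap, 91.2 CPM, which lay within the WT range, thus come from a library in which cerebellar cortex markers were low.

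Reactive astrocyte genes were the second test of gliosis. The list holds 37 genes, such as filament, acute-phase, antigen presentation and cytokine receptor genes, of which 29 had a mean of at least 1 CPM and 33 were tested. Cxcl10, Tgm1, Ptx3 and Slc10a6 fell to the filter on low counts. By edgeR's adjusted p 0 of the 33 passed in any comparison, as with DESeq2. At an unadjusted p under 0.05 there was 1 in the knock-in contrast (H2-T23, higher), 0 in the Hit 2 contrast and 1 in the treated knock-in contrast (Fbln5, an extracellular matrix gene, lower). Fbln5 read 18.9 CPM in WT library 431, against 6.32 to 7.89 CPM in the other WT libraries and 3.31 to 6.89 CPM in Het Hit 2. Its log2 fold change of -1.06 (SE 0.38, adjusted p 1.000) was -0.58 without 431. Over all genes tested 7.11%, 1.55% and 1.71% had such a p. DESeq2 gave 1, 0 and 2 of the list, against 9.27%, 2.28% and 1.95% of all genes. In the knock-in contrast 19 of the 33 had a positive and 14 a negative log2 fold change, with a median of 0.08 beside 0.05 over all genes. The medians were -0.12 beside -0.04 for the Hit 2 contrast and -0.03 beside 0.02 for the treated knock-in contrast. Single genes ran from -1.21 to 1.05 (Serpina3n, SE 0.83) in the knock-in contrast. In the treated knock-in contrast they ran from -1.06 to 1.34 (Lcn2, SE 0.70). Serpina3n read 18.5 CPM in library 411, against 1.37 to 3.46 CPM in the other Het DMSO libraries. Lcn2 read 9.01 CPM in library 430, against 1.17 to 2.43 CPM in the other Het Hit 2 libraries.

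Groups did not overlap for 2 reactive genes in the knock-in contrast, both higher, against 1.94% of all genes. H2-T23, a class I histocompatibility gene, read 3.98 to 6.24 CPM in WT DMSO and 6.76 to 9.79 CPM in Het DMSO (log2 fold change 0.55, SE 0.24, adjusted p 0.616). Stat3, the transcription factor gene downstream of cytokine receptors, read 57.4 to 64.2 CPM in WT DMSO and 103 (409), 65.9 (411), 64.5 (420) and 66.7 CPM (429) in Het DMSO (log2 fold change 0.30, SE 0.15, adjusted p 0.616). Library 409 stood far above the rest, and the other 3 Het DMSO libraries lay just above the highest WT library. Without 409 the Stat3 difference was 0.10. That of H2-T23 was 0.37 without 409 and 411. In the treated knock-in contrast, 1 gene lay lower without overlap (Hspb1, log2 fold change -0.51, SE 0.25) and 1 higher (Ggta1, 0.59, SE 0.41), against 3.42% and 2.90% of all genes (adjusted p 1.000 for both). Hspb1 stood at -0.24 without WT library 425 and -0.17 with a sex covariate, and Ggta1 at 0.23 without library 410.

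By mean CPM over the 12 libraries, which is not scaled for length, Vim, H2-D1 and Stat3 led the reactive list. Per length, the WT DMSO means of these genes were 22.9, 34.7 and 6.43 RPKM. Vim, an intermediate filament gene that Bergmann glia also express, read 108 ± 15.5 CPM in WT DMSO, 84.7 ± 40.3 in Het DMSO and 100.3 ± 19.3 CPM in Het Hit 2 (SD, n = 4), with 27.1 CPM in library 411 and 71.6 CPM in 410 (log2 fold change in the knock-in contrast -0.36, SE 0.34, adjusted p 0.686, -0.05 without 411 and -0.57 without 420). H2-D1 read 84.3 to 99.0, 51.1 to 129 and 77.8 to 89.1 CPM.

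**Figure D5:**
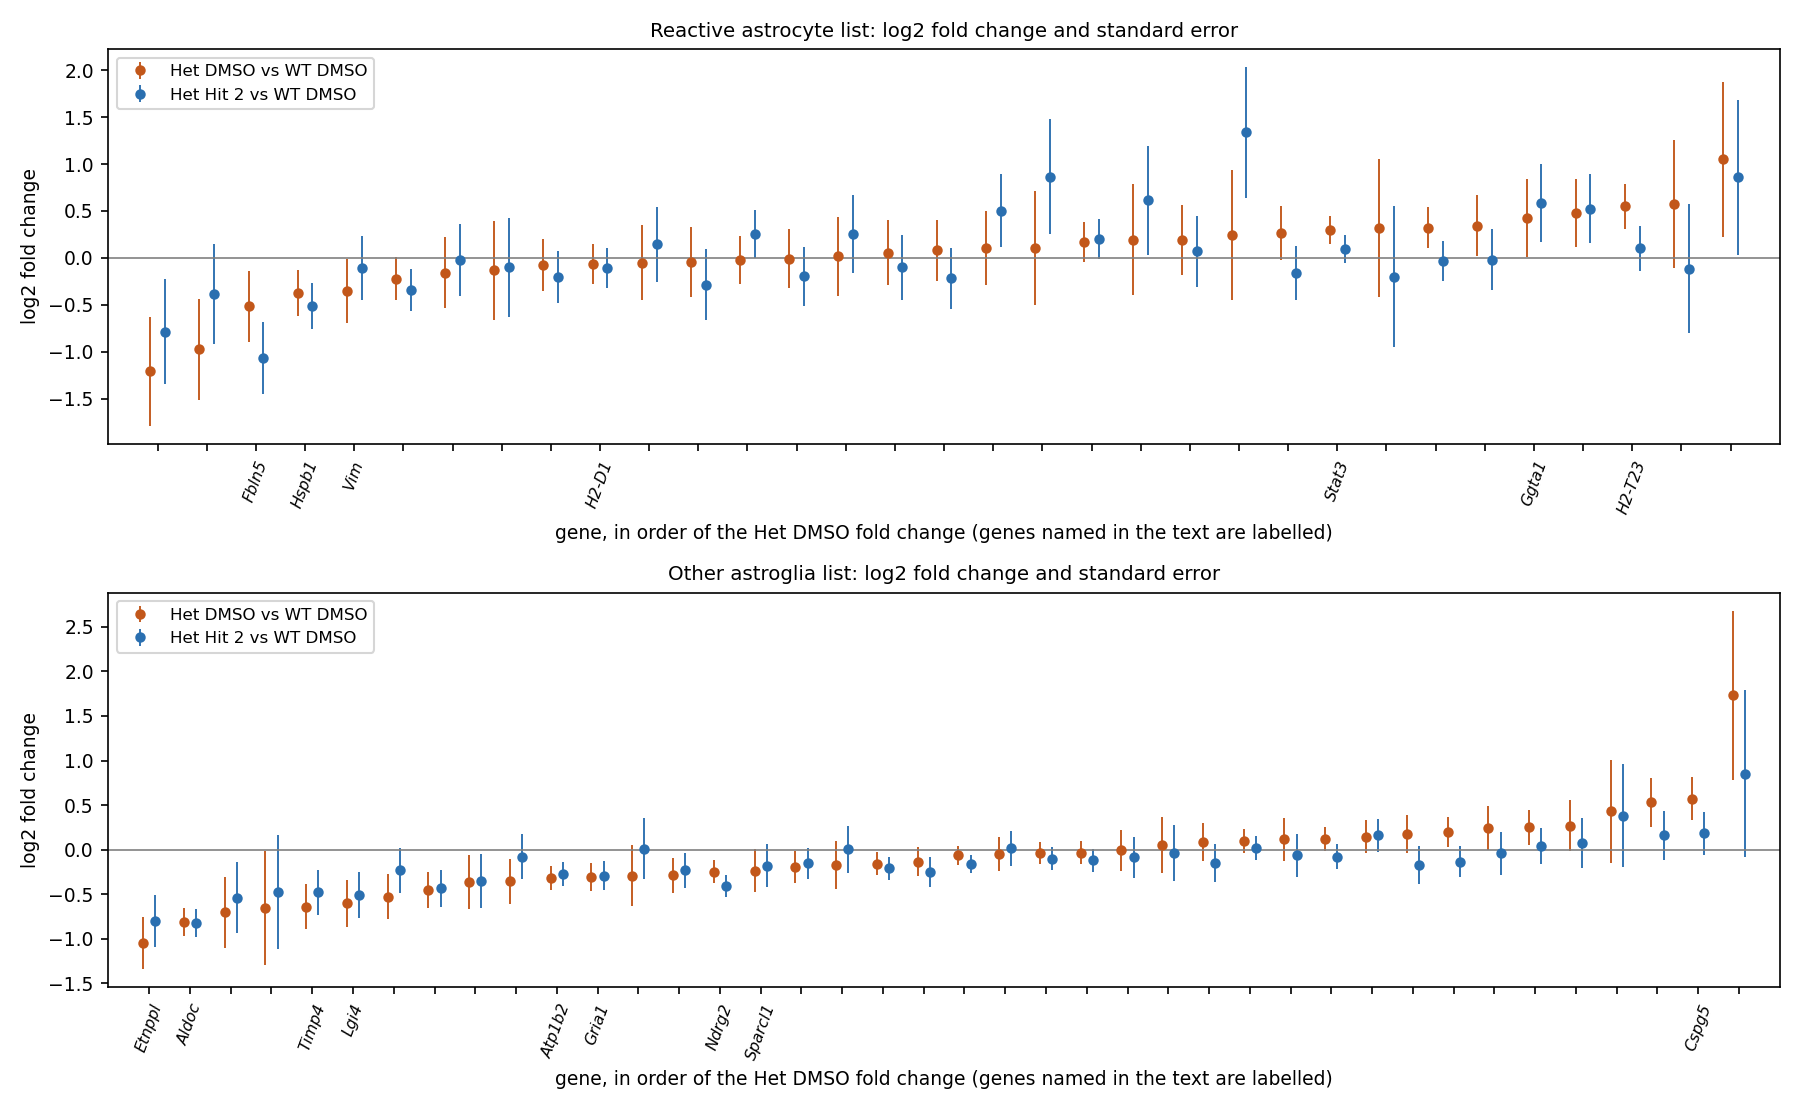
Log2 fold change (points) and standard error (lines) of every tested gene of the reactive astrocyte list (top, 33 genes) and the other astroglia list (bottom, 40 genes) in Het DMSO and Het Hit 2, each against WT DMSO, with the genes named in the text, other than Lcn2 and Serpina3n, labelled. Points of the reactive list scatter on both sides of 0, and Aldoc stands at -0.81 and -0.82 with standard errors of 0.16.

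The other astroglia list covered 40 genes of ion and glutamine handling, lipid carriers, transcription factors and Bergmann glia receptors, all of which were tested. By edgeR's adjusted p 0 passed in any comparison. At an unadjusted p under 0.05, 6 were lower and 1 (Cspg5) higher in the knock-in contrast, 0 differed in the Hit 2 contrast, and 3 (Aldoc, Ndrg2 and Etnppl) were lower in the treated knock-in contrast, beside 7.11%, 1.55% and 1.71% of all genes. The value of Cspg5, a brain proteoglycan gene, rested on 2 libraries. It read 143 (409), 167 (411), 83.5 (420) and 68.4 CPM (429) in Het DMSO and 65.3 to 83.8 CPM in WT DMSO, and its log2 fold change of 0.57 (SE 0.24, adjusted p 0.616) was -0.04 without 409 and 411. DESeq2 called 1 gene, Aldoc, in each of the contrasts with WT DMSO and had 8, 0 and 5 genes at an unadjusted p under 0.05, beside 9.27%, 2.28% and 1.95% of all genes. Groups did not overlap for 7 genes in Het DMSO and 9 in Het Hit 2, all lower than WT DMSO, against 2.45% and 3.42% of all genes. The medians were -0.10 beside 0.05 and -0.14 beside 0.02.

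Aldoc, the aldolase C gene of astrocytes and of the zebrin-positive Purkinje cells, had the smallest p of the list. It read 804 (413), 1281 (425), 1137 (426) and 1118 CPM (431) in WT DMSO, 620 (409), 617 (411), 677 (420) and 554 (429) in Het DMSO, and 568 (410), 700 (421), 551 (422) and 635 CPM (430) in Het Hit 2. All Het libraries, 409 and 411 included, lay in 1 band below the WT libraries. Aldoc differed from WT DMSO by -0.81 (SE 0.16, unadjusted edgeR p 2.45e-04, adjusted p 0.259) in Het DMSO and by -0.82 (SE 0.16, unadjusted edgeR p 2.24e-04, adjusted p 0.387) in Het Hit 2. DESeq2 gave adjusted p of 6.56e-04 and 4.22e-04. Limma with a quality weight per library gave 0.0244 and 0.0119, and edgeR without libraries 409 and 411 gave 0.0377 for the second. Over all 22 alternatives the adjusted p ran from 6.56e-04 to 0.853 for the first and from 4.22e-04 to 1.000 for the second, with the direction lower in each. The edgeR fit with a sex covariate gave the 0.853, with log2 fold changes of -0.64 and -0.65. WT libraries 425 and 426, which that covariate sets apart, held the highest Aldoc values. Summed Purkinje cell markers also lay lower in all Het libraries, and their part in the Aldoc values was not tested.

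Etnppl, which encodes an astrocytic ethanolamine-phosphate phospho-lyase, read 92.2 to 218 CPM in WT DMSO, 49.1 to 82.8 CPM in Het DMSO and 53.7 to 91.8 CPM in Het Hit 2. Its log2 fold changes were -1.05 (SE 0.29, adjusted p 0.616) and -0.80 (SE 0.29, adjusted p 1.000). WT library 431, at 218 CPM, stood above the 92.2 to 113 CPM of the other WT libraries, and without it the values were -0.70 and -0.44. The other genes with groups apart and the smallest p in Het DMSO were Timp4 (log2 fold change -0.64), Atp1b2 (-0.31), Lgi4 (-0.60) and Gria1 (-0.31), each at an adjusted p of 0.616. Without library 411 Timp4 stood at -0.40, Atp1b2 at -0.19 and Lgi4 at -0.37. Timp4 is an inhibitor of matrix proteases and Gria1 an AMPA receptor subunit that Bergmann glia express. In Het Hit 2 they were Ndrg2 (-0.41), Atp1b2 (-0.27), Lgi4 (-0.51) and Timp4 (-0.48, or -0.31 with unstranded counts), each at an adjusted p of 1.000. Limma with quality weights called the first pair of these, Ndrg2 at -0.37 (adjusted p 0.0210) and Atp1b2 at -0.25 (adjusted p 0.0432), and over all 22 alternatives their adjusted p ran from these values to 1.000. Among the genes of the list with the highest mean CPM (not scaled for length) were Sparcl1 (1209 ± 101 CPM in WT DMSO, SD, n = 4), a secreted matrix protein gene of astrocytes, and Atp1b2 (971 ± 37.3 CPM), a sodium pump subunit gene.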

How the data were processed

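Raw STAR read counts per gene were deposited by the authors, 1 table per library; STAR 2.7.10a, FastQC 0.11.9 and the build GRCm39 (mm39) are named in the submitters' processing notes, while the annotation release and trimming are not given in the sources used here. Per the labels, 500 ng of RNA went through ribosomal depletion and a directional preparation with 13 cycles, and was read as pairs of 100 bases. The counts on the opposite strand were used (5.21% to 6.47% of gene reads lay on the other strand). Reads assigned to no gene (44.7% to 54.6%), ambiguous reads (0.761% to 1.33%), those mapped to several places (4.08% to 7.01%) and unmapped reads (3.70% to 6.53%) stayed out of library sizes and tests.

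Symbols came from GENCODE M21 (55141 of 55401 identifiers). That annotation is on GRCm38, another build than the authors', so its exon lengths only scale RPKM. Promoters come from RefSeq (GRCm38.p6). Genes were filtered with filterByExpr (19378 kept), scaled by TMM and fitted in 1 edgeR 4.0.16 quasi-likelihood model (R 4.3.3) over all 12 libraries with 1 coefficient per group. Tests were two-sided, with Benjamini-Hochberg adjustment over all genes and a threshold of 0.05. Log2 CPM used a prior count of 2. Intervals of fold changes are not adjusted for the number of genes. Each mouse gave 1 library, and animal numbers do not recur between groups. The labels name no batch and no sex. For 1 alternative sex was read from Xist and Y-linked transcripts. These set WT libraries 425 and 426 apart from the other WT libraries and from every Het library. The sex covariate thus overlaps in part with the contrasts against WT DMSO.

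Members and lists were chosen with earlier results of these data known. Named from the lists were genes past the threshold, up to 6 genes per comparison with at least 1 CPM, groups apart and the smallest p, and the 3 with the highest level; for likeness, the 3 genes with the highest Pearson r to a member. Cspg5, Fbln5, Lcn2, Serpina3n, Gabra6, Slc6a3, Slc17a6 and Slc6a5 fall outside this rule and were chosen after their values were seen. Some genes that this rule names are not reported here. Alternatives were DESeq2 1.42.0, limma 3.58.1 with library quality weights, RLE factors, no count filter, counts from both strands, a robust quasi-likelihood fit, a filter at a mean of 50 reads, a sex covariate, a fit to the 2 groups of a contrast alone, no 409 and 411, and leaving out each library.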

Additional observations from a re-analysis of the deposited data

Results flagged for a closer look

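None of the 30 checks of members by group (10 genes in 3 groups of 4) found a library set apart from the other 3 by a gap that is large for 4 values. Of 36 such checks on summed cell type markers 7 did, where chance gives about 1 in 20. The checks used CPM, a scale on which a low value has little room to stand apart, and none was run on log2 CPM. In log2 CPM minus the WT DMSO mean, 411 stood at -6.41 for Gdf10, beside -0.56 to -0.98 in the other Het DMSO libraries. For Hopx it stood at -2.74 (others 0.09 to -0.31) and for Slc1a3 at -2.08 (others -0.17 to -0.44). In Het DMSO, library 411 stood apart with 198 CPM of microglia markers (next 102), 162 CPM of oligodendrocyte precursor markers (next 91.9) and 370 CPM of brainstem or midbrain neuron markers (next 72.0), and library 429 with 1907 CPM of choroid plexus markers (next 175). In Het Hit 2, library 410 stood apart with 122 CPM of oligodendrocyte precursor markers (next 80.3), 943 CPM of choroid plexus markers (next 17.1) and 85.6 CPM of meninges markers (next 59.9). High choroid plexus sums were also found in 2 WT DMSO libraries, 1081 CPM in 425 and 677 CPM in 413, against 23.04 CPM in 426 and 17.8 CPM in 431, a pattern that a check for 1 extreme library does not pick out. Libraries 411 and 410 are also those with the lowest Slc1a3, Gdf10 and Hopx in their groups.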

How the results depend on the processing

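The count of members called stayed at 0 in all 3 comparisons under each of the 22 alternatives, as did that of reactive astrocyte genes. The other astroglia list gave 1 call with DESeq2 and 1 with quality weights for Het DMSO. For Het Hit 2 it gave 1 with DESeq2, 3 with quality weights (Aldoc, Ndrg2 and Atp1b2) and 1 without 409 and 411. Counts over all genes, 1 in each comparison with WT DMSO, changed most. For Het DMSO they were 43 with DESeq2, 98 with quality weights, 18 without 409 and 411, 0 with only the 2 groups compared, and 0 to 9 when 1 library was left out (9 without 411, 4 without 409, 0 without 429). For Het Hit 2 they were 24 with DESeq2, 221 with quality weights, 90 without 409 and 411, 54 with only the 2 groups, 4 without a count filter, 2 with unstranded counts, 0 with a sex covariate, and 0 to 14 when 1 library was left out (14 without 411, 5 without 409, 2 without 429, and 0 without any 1 WT DMSO or Het Hit 2 library). The causes were not tested. Signs of member fold changes turned in 15 of 220 refits of the knock-in contrast, 20 of 220 of the Hit 2 contrast and 7 of 220 of the treated knock-in contrast; those of Gdf10, Slc1a3, Hopx and Fabp7 did not turn in either comparison with WT DMSO. Quality weights moved many member values by over 1.5 times. In the knock-in contrast Slc1a3 went to -0.34, Hopx to -0.22, Fabp7 to 0.50, Slc1a2 to -0.11, Aqp4 to 0.04, Gfap to -0.35, S100b to 0.04, Gja1 to -0.13 and Aldh1l1 to -0.16, and in the Hit 2 contrast Slc1a3 to 0.06, Gdf10 to 0.10, Hopx to -0.14, Aqp4 to -0.15, Gfap to 0.09, S100b to -0.08 and Aldh1l1 to 0.03. With them Etnppl (-0.64), Timp4 (-0.41), H2-T23 (0.36), Stat3 (0.09), Vim (-0.15) and Cspg5 (-0.02) also came closer to 0 in the knock-in contrast, as did Ggta1 (0.34) in the treated knock-in contrast. With a sex covariate Hopx stood at -0.18 and Slc1a2 at -0.20 in the treated knock-in contrast and Fabp7 at 0.18 in the knock-in contrast, and with unstranded counts Hopx stood at 0.08 in the Hit 2 contrast. No paired analysis was possible because the groups share no animal numbers. With 4 libraries a group, the spread within groups, estimated jointly in 1 model, limits what could be detected. The intervals of Gdf10 and Hopx are the widest of the members, and no member passed without 409 and 411 either.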
